A study of Mus musculus with 14 samples.

Results

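The hypoxia signature comparison set the 5 thymic lymphomas with the highest score for HIF target genes against the 5 with the lowest, 10 of the 14 tumours of the series. The score of a tumour was the mean log2 expression of Slc2a1, Pgk1, Ldha, Bnip3 and Vegfa, with each gene read from its probe set of highest mean, and the 4 tumours between the classes were not compared. The tumours were thus chosen by the measured values of these 5 genes, and the classes are not a treatment. All tumours came from p53R270H/R270H mice, homozygous for a mutant p53 allele, on a mixed (C57BL/6-129/SvEvTac) background. They carried HIF1a+/+ (5 tumours), HIF1a+/- (5 tumours) or HIF1aKI/+ (4 tumours). No tumour had wild-type p53, and the labels do not say what the KI allele carries, nor the age or sex of any mouse. Mice were killed when breathing became laboured, and 100 ng of total RNA from whole tumour tissue was hybridised to 1 array per tumour. The high class held 2 HIF1a+/-, 2 HIF1aKI/+ and 1 HIF1a+/+ tumours. The low class held 2 HIF1a+/-, 1 HIF1aKI/+ and 2 HIF1a+/+ tumours, so neither class was a genotype. Mean scores by genotype were 11.43 ± 0.41 (SD, n = 5) for HIF1a+/-, 11.44 ± 0.33 (SD, n = 5) for HIF1a+/+ and 11.64 ± 0.46 (SD, n = 4) for HIF1aKI/+.

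HIF-1 is a transcription factor made of an oxygen-regulated alpha subunit (Hif1a) and a constant partner (Arnt). When oxygen is plentiful, prolyl hydroxylases of the Egln family mark the alpha subunit for destruction through the Vhl ubiquitin ligase, and when oxygen falls the alpha subunit accumulates and binds DNA at the core letters ACGTG. Its targets carry glucose into the cell, run glycolysis, regulate mitochondria and call in blood vessels, although in T lineage cells antigen receptor signalling and Myc also drive many of the same glycolytic genes. Tissue oxygen and HIF1a protein were not analysed here.

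The score genes were picked as known HIF targets. The HIF core letters stood before the outermost annotated start of 4 of them, and for Vegfa only before a second start inside the gene. The windows below are the 250 bases before the annotated start in RefSeq (build GRCm38.p6), read in the direction of transcription, with every ACGTG on either strand in capitals. Overlapping matches on the 2 strands form CACGTG, the E-box to which Myc also binds. They are shown for the 4 score genes with a match just before the outermost start, and for the hexokinase gene Hk2 and the collagen hydroxylase gene P4ha1, the members of the glycolysis and HIF target lists that differed between the classes with the smallest p.
Slc2a1, chr4:119108495-119108744, plus strand: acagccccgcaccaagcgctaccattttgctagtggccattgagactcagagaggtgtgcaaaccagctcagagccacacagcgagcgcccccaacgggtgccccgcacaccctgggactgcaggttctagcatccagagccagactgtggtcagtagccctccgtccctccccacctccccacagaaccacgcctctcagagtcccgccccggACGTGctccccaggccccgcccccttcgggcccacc
Pgk1, chrX:106186850-106187099, plus strand: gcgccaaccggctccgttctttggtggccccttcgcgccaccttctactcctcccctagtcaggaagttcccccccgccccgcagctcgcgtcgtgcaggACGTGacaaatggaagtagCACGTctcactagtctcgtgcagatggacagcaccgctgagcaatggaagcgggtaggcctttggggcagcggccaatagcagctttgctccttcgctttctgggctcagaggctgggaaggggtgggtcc
Ldha, chr7:46845554-46845803, plus strand: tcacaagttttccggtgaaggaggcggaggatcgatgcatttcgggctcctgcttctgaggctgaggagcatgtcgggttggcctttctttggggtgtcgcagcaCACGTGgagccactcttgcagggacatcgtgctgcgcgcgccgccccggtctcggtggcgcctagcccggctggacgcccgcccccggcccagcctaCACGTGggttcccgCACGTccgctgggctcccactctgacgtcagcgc
Bnip3, chr7:138909507-138909756, minus strand: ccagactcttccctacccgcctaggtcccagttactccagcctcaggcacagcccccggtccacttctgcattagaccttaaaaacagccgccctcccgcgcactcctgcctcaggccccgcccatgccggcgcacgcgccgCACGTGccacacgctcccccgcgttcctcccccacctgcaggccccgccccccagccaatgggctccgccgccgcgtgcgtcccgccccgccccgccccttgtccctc
Hk2, chr6:82774455-82774704, minus strand: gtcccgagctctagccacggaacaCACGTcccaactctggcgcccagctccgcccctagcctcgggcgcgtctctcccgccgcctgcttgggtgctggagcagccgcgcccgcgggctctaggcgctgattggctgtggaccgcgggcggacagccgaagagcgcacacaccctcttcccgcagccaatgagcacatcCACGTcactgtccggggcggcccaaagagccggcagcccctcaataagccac
P4ha1, chr10:59323046-59323295, plus strand: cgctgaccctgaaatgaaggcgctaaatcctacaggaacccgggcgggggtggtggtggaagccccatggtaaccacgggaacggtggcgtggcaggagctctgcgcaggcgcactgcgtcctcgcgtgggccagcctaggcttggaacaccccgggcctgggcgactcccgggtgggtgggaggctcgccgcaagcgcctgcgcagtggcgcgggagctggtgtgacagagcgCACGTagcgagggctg
The Ldha window held 5 matches counted on both strands, Pgk1, Bnip3 and Hk2 held 2 each, and Slc2a1 and P4ha1 held 1 each. Vegfa had no match before its outermost start and 1 before a second start inside the gene. Of the HIF target genes outside glycolysis with a window, 19 of 32 (59.4%) held the letters, against 2013 of 8243 (24.4%) of all genes tested. In the glycolysis list 7 of 17 genes (41.2%) held them. Among all 32851 promoter windows of this length the share was 16.6%. Matches are letters in a window and do not show that HIF was bound.

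Scores ran from 10.81 in HIF1a+/- tumour 5 to 12.14 in HIF1aKI/+ tumour 3. In the low class they were 10.81 (HIF1a+/- tumour 5), 11.07 (HIF1a+/+ tumour 5), 11.14 (HIF1aKI/+ tumour 5), 11.32 (HIF1a+/- tumour 2) and 11.32 (HIF1a+/+ tumour 4). In the high class they were 11.57 (HIF1a+/- tumour 4), 11.91 (HIF1a+/- tumour 3), 11.92 (HIF1aKI/+ tumour 1), 11.96 (HIF1a+/+ tumour 2) and 12.14 (HIF1aKI/+ tumour 3). The tumours formed a continuous series rather than separated sets at the upper boundary, since the lowest score in the high class was 11.57 and the highest outside it was 11.56. At the lower boundary the scores on either side were 11.32 and 11.38. The class means were 11.90 ± 0.21 in the high class and 11.13 ± 0.21 in the low class (SD, n = 5 each), a difference of 0.77 that the choice of tumours fixed.

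Bnip3, which encodes a mitochondrial protein that marks mitochondria for removal under low oxygen, made up 47.9% of the score difference. Its log2 values in the low class were 9.36, 9.39, 9.70, 10.50 and 10.07, in the order of rising score, and in the high class 11.19, 11.59, 11.42, 11.90 and 12.15, so that the classes did not overlap. Vegfa, the main growth factor for blood vessels, made up 20.8% with a difference of 0.80. Its values were 5.82, 6.13, 6.12, 5.99 and 6.13 in the low class and 6.12, 7.13, 7.39, 6.21 and 7.33 in the high class. Vegfa thus stood above 7 in 3 high tumours and near the low class in HIF1a+/- tumour 4 and HIF1a+/+ tumour 2.

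The glucose importer Slc2a1 made up 17.4%, with values of 11.50, 12.09, 11.85, 12.26 and 12.17 in the low class and 12.33, 12.59, 12.61, 13.01 and 12.68 in the high class, again without overlap. The glycolytic enzymes Ldha (lactate dehydrogenase) and Pgk1 (phosphoglycerate kinase) gave only 6.90% and 6.89%. Their differences were 0.27 and 0.26, both with overlapping classes, and they were among the brightest signals in every tumour. Only HIF1aKI/+ tumour 3 was among the 5 highest for all 5 score genes, and only HIF1a+/- tumour 5 among the 5 lowest for all 5. HIF1a+/- tumour 4, the lowest of the high class, was among the 5 highest for 2 of the 5 genes. Further Slc2a1 probe sets differed by 0.81 and 0.97 and further Pgk1 probe sets by 0.42 and 0.20 in the same direction. The other Vegfa probe set was at background in all tumours. No test was made on any score gene, since these values chose the classes.

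**Figure D1:**
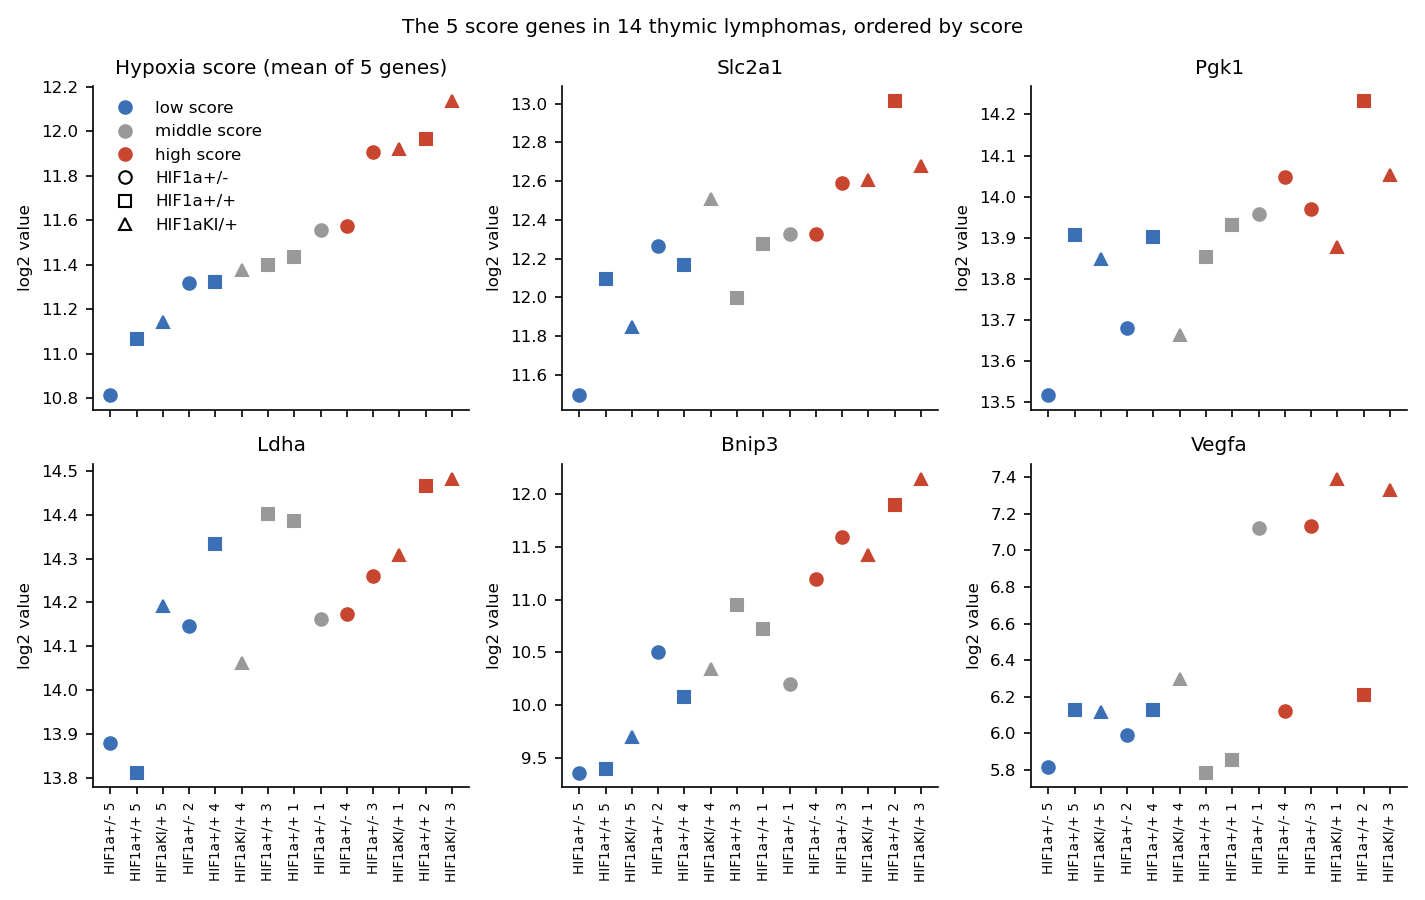
Hypoxia score and log2 GCRMA expression of the 5 score genes (vertical axes) in the 14 tumours ordered by score (horizontal axis), one point per tumour, coloured by class with the symbol giving the genotype. Bnip3 and Slc2a1 separate the 5 high from the 5 low tumours, whereas Pgk1, Ldha and Vegfa overlap between the classes.

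Across the 10249 genes outside the score, the classes differed in a single gene after adjustment. By limma with Benjamini-Hochberg adjustment, 1 gene was higher in the high class (0.00976%) and 0 were lower (0%), at an adjusted p under 0.05. At an unadjusted limma p under 0.05 there were 374 higher (3.65%) and 381 lower (3.72%), together 755 genes (7.37%). Classes did not overlap for 66 genes higher in the high class (0.644%) and 91 lower (0.888%), together 157 (1.53%). The median difference over all genes was -0.0056. The mean was higher in the high class for 4580 genes (44.7%) and lower for 5669 (55.3%), and 718 genes (7.01%) differed by at least 1 on the log2 scale. A call here means that a gene varied with the score across these tumours. Values below about 4.41, the boundary of the low mode of the arrays, are treated as background in what follows, and 28.5% of genes had a mean there.

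**Figure D2:**
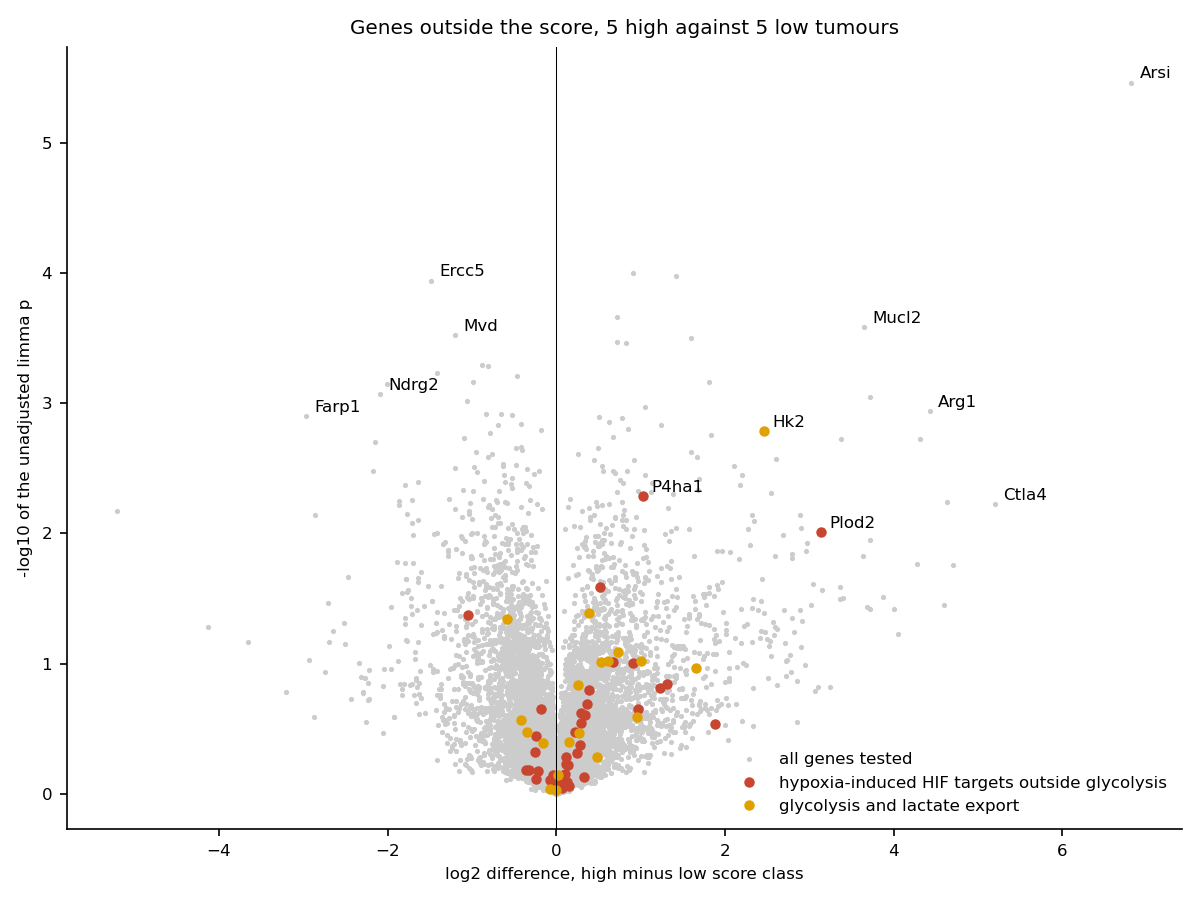
Difference of the class means, high minus low, on the log2 scale (horizontal axis) against -log10 of the unadjusted limma p (vertical axis) for the 10249 genes outside the score, with hypoxia-induced HIF targets in red and glycolysis genes in yellow. Arsi is the one gene past an adjusted p of 0.05, and the leading genes on either side do not pass it.

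The gene that passed was Arsi, which encodes arylsulfatase I, a member of the sulfatase enzyme family. Its log2 values in the low class were 4.40, 2.04, 2.28, 5.56 and 2.49, and in the high class 9.87, 10.03, 10.37, 9.44 and 11.15, in the order of rising score. All 5 high tumours lay far above all 5 low tumours, and 4 of the 5 low tumours were at background. The class means were 10.17 ± 0.64 and 3.35 ± 1.55 (SD, n = 5 each), a difference of 6.82 (SE 0.83, 113-fold, limma adjusted p = 0.0349). Because most low tumours were at background, the size of this fold rests on the background level. The 4 middle tumours, at 8.81, 11.95, 10.94 and 8.26, lay below, within or above the range of the high class. Arsi thus set the 5 low tumours apart from the 9 others. Within genotypes the high minus low differences were 4.97 (HIF1a+/-), 8.48 (HIF1aKI/+) and 7.17 (HIF1a+/+).

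Arsi was picked for its small p in these same tumours, so its kept direction is no further support, and the call was fragile. It passed in 5 of 14 fits that each left out 1 tumour, where the difference ranged from 6.49 to 7.37 and the adjusted p from 0.0151 to 0.167. It was lost without HIF1a+/- tumour 3 (limma adjusted p = 0.0736) or 5 (0.0829), without HIF1aKI/+ tumour 1 (0.0573), 3 (0.113) or 5 (0.167), and without HIF1a+/+ tumour 1 (0.0715), 2 (0.0551), 4 (0.0876) or 5 (0.155). Adding the genotype to the limma fit left the difference at 6.87 with an adjusted p of 0.116.

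Among the genes that led the higher side without passing, the clearest metabolic one was Hk2, the inducible hexokinase that traps glucose in the cell. Its log2 values were 4.71, 6.92, 7.29, 7.50 and 7.94 in the low class and 8.29, 9.17, 8.94, 10.19 and 10.05 in the high class. No low tumour reached the lowest high tumour. The difference was 2.46 (SE 0.61, 5.50-fold), with a limma adjusted p of 0.472. Within genotypes it was 2.63 (HIF1a+/-), 2.21 (HIF1aKI/+) and 2.76 (HIF1a+/+). The middle tumours, at 8.75, 8.90, 10.40 and 8.85, all lay above the low class.

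Arg1, the arginase of alternatively activated macrophages, also had classes that did not overlap. It measured 5.14, 6.997, 7.42, 1.94 and 6.66 in the low class and 7.77, 10.62, 9.37, 11.95 and 10.62 in the high class. The difference was 4.43 (SE 1.04), with a limma adjusted p of 0.472. The mean of the macrophage markers, in the same order of rising score, was 8.18, 9.69, 8.86, 8.75 and 8.88 in the low class. In the high class it was 8.80, 9.01, 9.01, 10.41 and 9.36. HIF1a+/+ tumour 2 had the highest macrophage mean and the highest Arg1 value. The part of macrophages in the Arg1 difference was not tested. Ryk, a Wnt receptor, differed by 3.72 (limma adjusted p = 0.472), with 9.20, 7.51, 7.45 and 6.83 in 4 high tumours but 3.35 in HIF1aKI/+ tumour 1 and at most 3.72 in the low class. Mucl2 differed by 3.64, Net1 by 1.81, Nup98 (a nuclear pore protein) by 1.60, Ate1 (the arginyltransferase of protein degradation) by 1.42, Tspan8 by 1.24 and Fam189b by 1.05, at limma adjusted p between 0.290 and 0.472. The low class means of all of these except Fam189b were at background, and Tspan8 was at background in all 14 tumours, so its difference lies within background.

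The lower side was led by Ercc5, a DNA endonuclease of nucleotide excision repair. It measured 10.62, 10.11, 10.10, 9.16 and 10.14 in the low class and 8.63, 8.79, 8.81, 8.66 and 7.78 in the high class. The classes did not overlap, and the difference was -1.49 (SE 0.26, limma adjusted p = 0.290). Mvd, an enzyme of cholesterol synthesis, measured 8.54, 8.40, 8.84, 8.29 and 8.21 in the low class and 7.37, 7.71, 7.62, 7.32 and 6.27 in the high class. Its difference was -1.20 (limma adjusted p = 0.352), while the cholesterol and fatty acid synthesis list as a whole had a median of -0.095 with 6 of 15 genes higher. The other leading lower genes were Slc66a1 (-1.41), Tg (-2.01), Ndrg2 (-2.09), Hexim1 (-1.06), Farp1 (-2.97), Snap29 (-1.09), Ttc16 (-2.15) and Rmdn1 (-1.20), at limma adjusted p between 0.426 and 0.495. A second Hexim1 probe set differed by 0.073, so the probe sets of this gene disagreed.

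**Figure D3:**
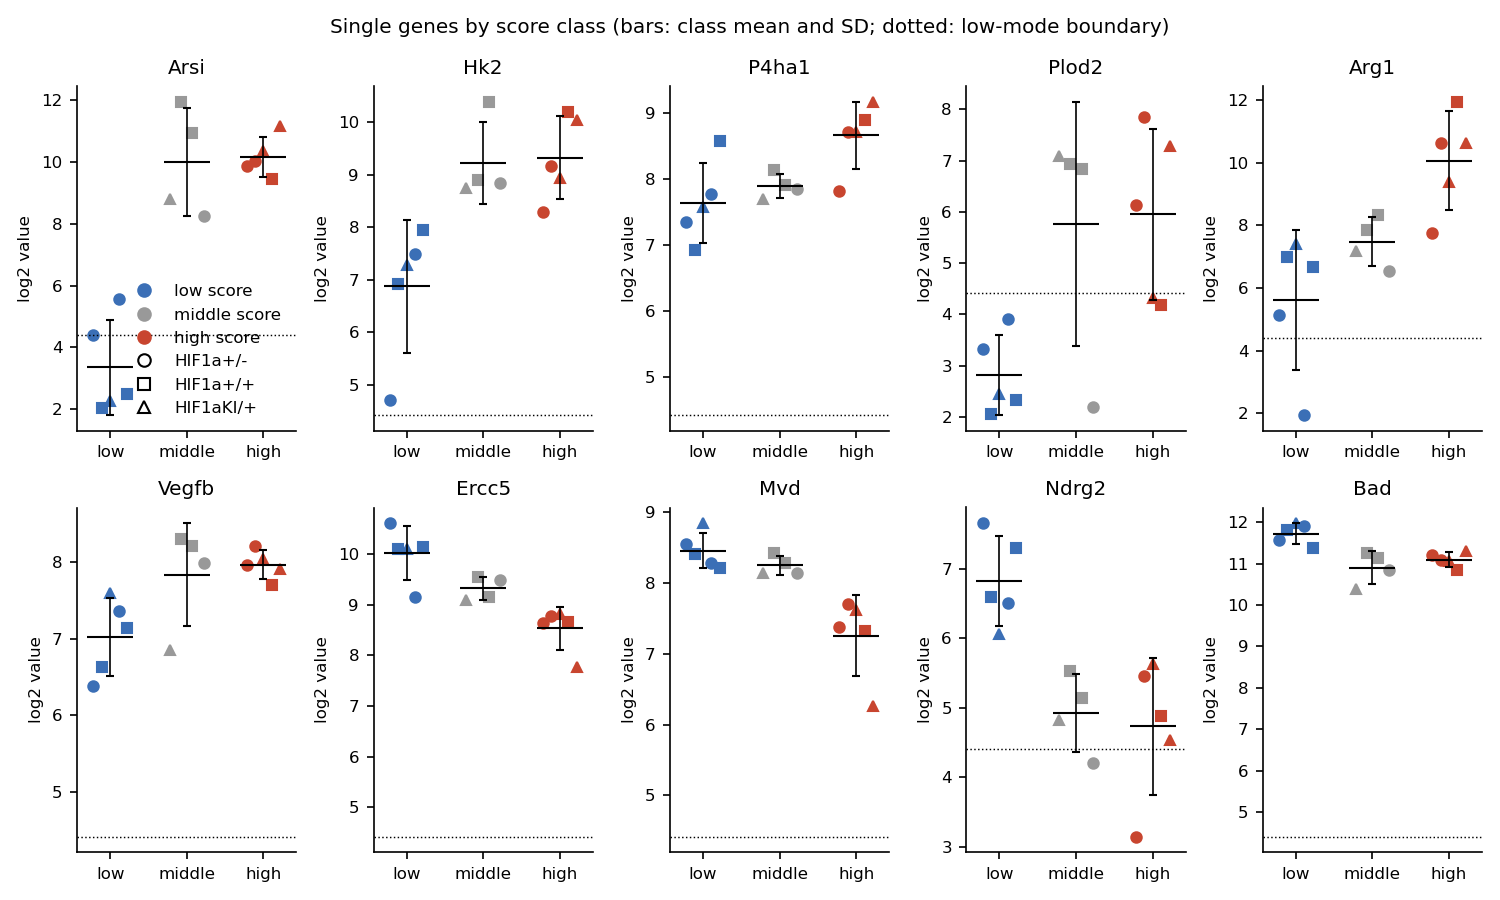
Log2 GCRMA expression (vertical axes) of 10 genes in the low, middle and high classes (horizontal axes), one point per tumour, with the class mean and SD as bars and the background boundary of 4.41 dotted. Arsi sets the low class apart from the 9 other tumours, and Hk2 and Ercc5 separate the low and high classes without passing the adjusted threshold.

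The lists described below were read against the values for all genes. No member of any list passed the adjusted limma threshold. Of the 538 distinct list genes measured, 30 (5.58%) had an unadjusted limma p under 0.05, against 7.37% of all genes tested. The list medians are descriptions of small differences. Of the 33 lists, 12 kept the sign of their median under every alternative tried, and 18 changed sign when 1 or another tumour was left out. Some medians are also given after a filter on level, which keeps genes with a mean over the 14 tumours above the background boundary.

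Hypoxia-induced HIF targets outside glycolysis and outside the score tended to have the higher mean in the high class, by small amounts. Of 39 measured, 27 were higher (69.2%, against 44.7% of all genes), with a median difference of 0.14. With 1 tumour left out the median ran from 0.12 (without HIF1aKI/+ tumour 5) to 0.24 (without HIF1a+/- tumour 4). At an unadjusted limma p under 0.05 there were 3 higher (P4ha1, Plod2 and Mxi1) and 1 lower (Plod1). P4ha1, a subunit of the hydroxylase that stabilises collagen, measured 7.35, 6.92, 7.57, 7.77 and 8.57 in the low class and 7.82, 8.71, 8.71, 8.89 and 9.17 in the high class. The classes overlapped through HIF1a+/+ tumour 4 and HIF1a+/- tumour 4, and the difference was 1.03 (SE 0.30, limma adjusted p = 0.526).

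Plod2, a lysyl hydroxylase that prepares collagen for cross-linking, was at background in all 5 low tumours, with 3.91 the highest. It measured 6.14, 7.84, 4.31, 4.18 and 7.28 in the high class, a difference of 3.14 (SE 1.02, limma adjusted p = 0.536), although 2 of these 5 values were also under the background boundary. The middle tumours measured 7.09, 6.94, 6.84 and 2.20, so Plod2 was not particular to the high class. A second Plod2 probe set differed by 2.87, and a second P4ha1 probe set by 1.04. Its relative Plod1 went the other way at -1.05 (limma adjusted p = 0.651). Mxi1, an antagonist of Myc, differed by 0.52 (limma adjusted p = 0.619).

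None of the other widely used hypoxia markers passed the limma threshold. The acid-balancing carbonic anhydrase Car9 measured 3.43, 2.97, 2.82, 6.13 and 2.09 in the low class and 5.02, 2.08, 5.16, 5.86 and 5.90 in the high class. The value in HIF1a+/- tumour 2 of the low class was the highest of all 10, and the difference of 1.32 had a limma adjusted p of 0.766. The stress gene Ddit4 differed by -0.056, the vasodilator peptide gene Adm by -0.21, Ndrg1 by 0.12 (and by 0.23 to 0.69 on 4 other probe sets), and Fam162a by 0.37. The probe sets of 2 further genes disagreed. The endoplasmic reticulum oxidase gene Ero1a differed by 0.10 on the probe set used and by 0.54 and 0.85 on others. Higd1a differed by 0.14 on the probe set used and by -0.32 on another above background. Adm was at background in all tumours but HIF1a+/+ tumour 5, at 5.06, and without that tumour its difference was 0.24. Pdk1, the kinase that closes pyruvate dehydrogenase, differed by 0.38.

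None of the genes that sense oxygen and make up HIF passed the limma threshold. Of 12 measured, 5 were higher in the high class, with a median of -0.050 (0.023 after the filter on level) and 0 at an unadjusted limma p under 0.05. Hif1a itself differed by 0.15 (limma adjusted p = 0.934), and its 2 other probe sets above background by 0.70 and -0.23, so that the probe sets of this gene disagreed. Egln3, a prolyl hydroxylase that is itself a HIF target, differed by 0.67 (limma adjusted p = 0.719) and Egln1 by 0.28. The probe sets of Epas1 (the HIF-2 alpha subunit), Arnt and Vhl were at background in all 14 tumours, so these genes were not measured in a useful range.

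Glycolysis genes outside the score had a median difference of 0.27, with 13 of 19 measured members higher. Besides Hk2, the phosphoglycerate mutase Pgam1 was higher by 0.39 and the muscle-type phosphofructokinase Pfkm lower at -0.58, each with an unadjusted limma p under 0.05 and adjusted p of 0.646 and 0.659. The neuronal-type glucose importer Slc2a3 differed by 0.73 (limma adjusted p = 0.708) and the lactate exporter Slc16a3 by 1.65 (limma adjusted p = 0.731), both with overlapping classes. Hk1, the constitutive hexokinase, which was named after its value was seen for comparison with Hk2, differed by -0.42. The list median was 0.15 without HIF1a+/+ tumour 2 and 0.43 without HIF1a+/- tumour 4. With the replicate number as a block in the fit it was 0.0030.

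Within genotypes the 2 lists behaved unevenly. The HIF target median was -0.020 (17 of 39 higher) between the 2 high and 2 low HIF1a+/- tumours, 0.27 (30 of 39) in HIF1aKI/+ with 2 high and 1 low tumours, and 0.24 (27 of 39) in HIF1a+/+ with 1 high and 2 low tumours. For glycolysis the medians were 0.026, 0.18 and 0.29. These sets are too small for a test, and a difference between genotypes was not tested.

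Among angiogenic factors and receptors, 10 of 14 were higher with a median of 0.061. However, 8 of the 14 were at background in all tumours, and the median of those left by the filter on level was 0.32. With all 14 kept, leaving out 1 tumour moved it between 0.012 (without HIF1a+/- tumour 2) and 0.16 (without HIF1a+/- tumour 5).

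Vegfb, a Vegfa relative with little effect on vessel sprouting, measured 6.39, 6.63, 7.59, 7.36 and 7.14 in the low class and 7.97, 8.21, 8.04, 7.70 and 7.91 in the high class. The classes did not overlap, and the difference was 0.94 (SE 0.29, limma adjusted p = 0.526). Of the endothelial markers, 5 of 17 were higher with a median of -0.076 (-0.43 after the filter on level, 0.023 without HIF1a+/+ tumour 5), and 7 of the 17, among them Cdh5, Kdr and Tie1, were at background in all tumours.

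**Figure D4:**
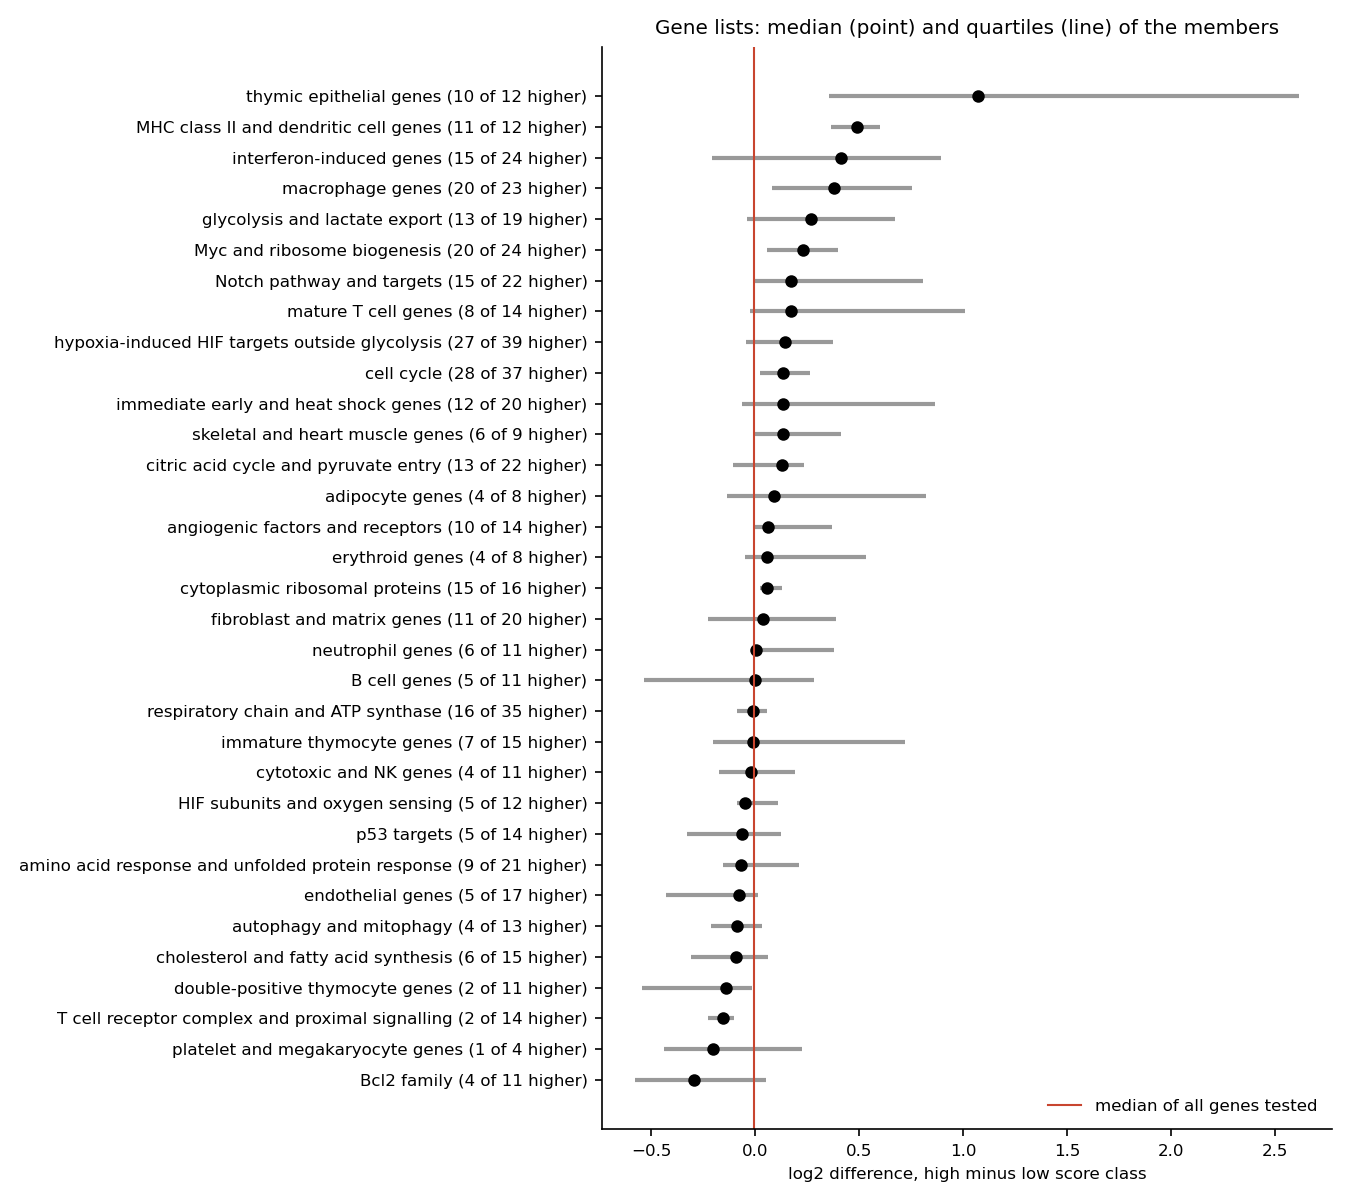
Differences of the class means, high minus low, on the log2 scale (horizontal axis) for the measured members of each gene list (rows), the point giving the list median, the grey line its quartiles and the red line the median of all genes (-0.0056). The HIF target and glycolysis medians are 0.14 and 0.27, and the thymic epithelial list has the highest median of those plotted (1.07).

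Mitochondrial energy genes showed no shared direction. In the respiratory chain and ATP synthase list 16 of 35 were higher with a median of -0.0100. The succinate dehydrogenase subunits Sdha (0.34, limma adjusted p = 0.541) and Sdhb (-0.33, limma adjusted p = 0.660) pointed in opposite directions. In the citric acid cycle list 13 of 22 were higher with a median of 0.13, which was -0.0061 without HIF1a+/- tumour 5 and 0.033 without HIF1a+/+ tumour 2. Idh3b, a subunit of the NAD-dependent isocitrate dehydrogenase, was the one member whose classes did not overlap, at -0.31 (limma adjusted p = 0.526). Autophagy and mitophagy genes, the process in which Bnip3 acts, had a median of -0.0885 with 4 of 13 higher. The amino acid and unfolded protein response list had a median of -0.070, with 9 of 21 higher.

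Growth genes more often had the higher mean in the high class, but this was not seen in every genotype. The sign of the cell cycle median also depended on 1 tumour. In the cell cycle list 28 of 37 were higher with a median of 0.14, and without HIF1a+/- tumour 5, whose mean over this list was the lowest of the 14 at 10.57, the median was -0.062. Myc and ribosome biogenesis genes were higher in 20 of 24 cases with a median of 0.23. This median became 0.10 without that tumour and -0.050 with the replicate number as a block in the fit. Within genotypes 24 of 24 were higher in HIF1a+/- (median 0.40), 10 of 24 in HIF1aKI/+ (median -0.030) and 14 of 24 in HIF1a+/+ (median 0.078). For the cell cycle list 36 of 37 were higher in HIF1a+/- (median 0.39). Only 12 of 37 were higher in HIF1aKI/+ (median -0.057) and 13 of 37 in HIF1a+/+ (median -0.16). Myc itself differed by 0.89 (limma adjusted p = 0.737) and the proliferation marker Mki67 by 0.29. Eif4a1, a translation initiation helicase, differed by 0.28 (limma adjusted p = 0.536).

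Cytoplasmic ribosomal protein genes were higher in 15 of 16 cases, but the median was 0.055. Rps9 (0.26) and Rps3 (0.14) had classes that did not overlap, with limma adjusted p of 0.495 and 0.526. Other Rps9 probe sets above background differed by -0.30 and 0.48, so the probe sets of this gene disagreed. In the p53 target list, in tumours that all carry mutant p53, 5 of 14 were higher with a median of -0.064. The death receptor Fas differed by -1.45 (limma adjusted p = 0.536) and the cell cycle inhibitor Cdkn1a by -1.61 (limma adjusted p = 0.674). In the Bcl2 family, relatives of Bnip3 that control cell death, 4 of 11 were higher with a median of -0.30, which was -0.12 without HIF1a+/- tumour 5 and -0.19 without HIF1a+/+ tumour 2. The pro-death member Bad measured 11.57, 11.82, 11.97, 11.89 and 11.37 in the low class and 11.20, 11.08, 11.06, 10.84 and 11.29 in the high class, without overlap (difference -0.63, limma adjusted p = 0.495).

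The thymic lymphoma label held in both classes by T lineage markers. The mean of the T cell receptor complex list lay between 11.20 and 11.67 in all 14 tumours, and between the classes 2 of 14 members were higher with a median of -0.16. Double-positive thymocyte genes had a median of -0.14 (2 of 11 higher) and, without HIF1a+/+ tumour 4, of -0.47. Immature thymocyte genes had a median of -0.010 (7 of 15 higher), but 6 of the 15 were at background in all tumours and after the filter on level the median was 0.53. Mature T cell genes had a median of 0.17 (8 of 14 higher), which ranged from 0.0019 without HIF1a+/+ tumour 2 to 0.49 without HIF1a+/- tumour 2. Among them the inhibitory receptor Ctla4 was at background in all 5 low tumours and measured 11.38, 6.83, 10.38, 6.52 and 3.16 in the high class. Its difference was 5.20 (SE 1.55, limma adjusted p = 0.526), and HIF1aKI/+ tumour 3, the tumour of highest score, was itself at background. In the Notch list 15 of 22 were higher with a median of 0.17. Of these 22, 7 had a mean at background, and after the filter on level the median was 0.53. Within HIF1a+/- the median of all 22 was 0.11 (15 of 22 higher). It was -0.015 (9 of 22) within HIF1aKI/+ and -0.023 (9 of 22) within HIF1a+/+. The Notch list mean was 6.45 and 6.17 in the low HIF1a+/- tumours 5 and 2, against 7.43 to 7.64 in the high class. The other low tumours were at 7.44, 7.52 and 7.897, so the rise was not seen in every genotype. Notch1, a frequent driver of T cell leukaemia, differed by 1.01 (limma adjusted p = 0.659).

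Marker levels of other cell types differed between tumours, the ranges of their list means overlapped between the classes, and no marker passed the limma threshold. In bulk tissue, fewer cells of a type and less RNA per cell cannot be told apart. Thymic epithelial genes had 10 of 12 members higher with a median of 1.07 (1.502 after the filter on level). Their list mean ran from 5.45 to 6.69 in the high class and from 3.16 to 5.89 in the low class, and the claudins Cldn3 and Cldn4 were at background in all tumours. Aire, the regulator of self-antigen display in the thymic medulla, measured 2.04, 2.05, 2.18, 3.51 and 2.06 in the low class and 2.94, 5.99, 7.37, 3.02 and 7.40 in the high class (difference 2.98, limma adjusted p = 0.536). Aire was thus above background in 3 of the 5 high tumours and in no low tumour. The middle tumours measured 5.40 (HIF1aKI/+ tumour 4), 2.05, 5.04 (HIF1a+/+ tumour 1) and 3.01, so it was not particular to the high class. Trp63, a transcription factor of epithelial cells, differed by 2.62 (limma adjusted p = 0.679) and the keratin Krt14 by 1.32. Both were at background in the low HIF1a+/+ tumours 4 and 5. In the other low tumours Trp63 measured 7.44, 6.78 and 6.64, against 6.65 to 8.49 in the high class. The list median was 0.78 without HIF1a+/+ tumour 4, 0.82 without HIF1a+/+ tumour 5 and 1.32 without HIF1a+/- tumour 5. Within genotypes the median of this list was 0.045 (HIF1a+/-), 0.62 (HIF1aKI/+) and 1.94 (HIF1a+/+).

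Macrophage genes had 20 of 23 members higher with a median of 0.38, which became 0.071 without HIF1a+/+ tumour 2, 0.15 without HIF1a+/- tumour 5, 0.57 without HIF1a+/- tumour 4 and 0.71 without HIF1a+/+ tumour 5. The list mean of HIF1a+/+ tumour 2 was 10.41, the others of the high class lay between 8.80 and 9.36, and the low class between 8.18 and 9.69. The defining marker Adgre1 differed by 1.46 (limma adjusted p = 0.699), and Siglec1 was at background in all tumours. MHC class II and dendritic cell genes had 11 of 12 members higher with a median of 0.49 (0.33 without HIF1aKI/+ tumour 1), list means of 7.93 to 8.97 in the high class and 7.16 to 8.28 in the low class, and Batf3, Ciita and Flt3 at background throughout. The antigen-presenting gene H2-Ab1 differed by 0.61 (limma adjusted p = 0.622). Interferon-induced genes had 15 of 24 members higher with a median of 0.41, which was 0.17 without HIF1a+/+ tumour 4, 0.26 without HIF1a+/- tumour 4 and 0.0029 when the score was made from scaled genes. The part of these cell types in the differences of Arsi, Hk2 and the HIF target list was not tested.

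The other cell type lists had medians from -0.21 to 0.13. These were fibroblast and matrix genes (0.038, 11 of 20 higher), neutrophil genes (0.0022, 6 of 11), erythroid genes (0.057, 4 of 8), adipocyte genes (0.090, 4 of 8), B cell genes (-0.0039, 5 of 11), cytotoxic and NK genes (-0.023, 4 of 11), platelet genes (-0.21, 1 of 4) and muscle genes (0.13, 6 of 9). After the filter on level the neutrophil, erythroid, adipocyte and B cell medians were 0.73, 0.58, 0.65 and 0.28. These rest on few genes, since 8 of 11, 6 of 8, 3 of 8 and 5 of 11 members had a mean at background. The neutrophil value was the difference of Lcn2 (SE 1.47) and the adipocyte value that of Lpl (SE 0.53). Most of the neutrophil and erythroid markers were at background, including Mpo, Elane and Csf3r for neutrophils and Klf1, Alas2 and Slc4a1 for erythroid cells. Immediate early and heat shock genes, which respond to handling, had a median of 0.13 with 12 of 20 higher, and of -0.030 without HIF1a+/+ tumour 2.

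**Figure D5:**
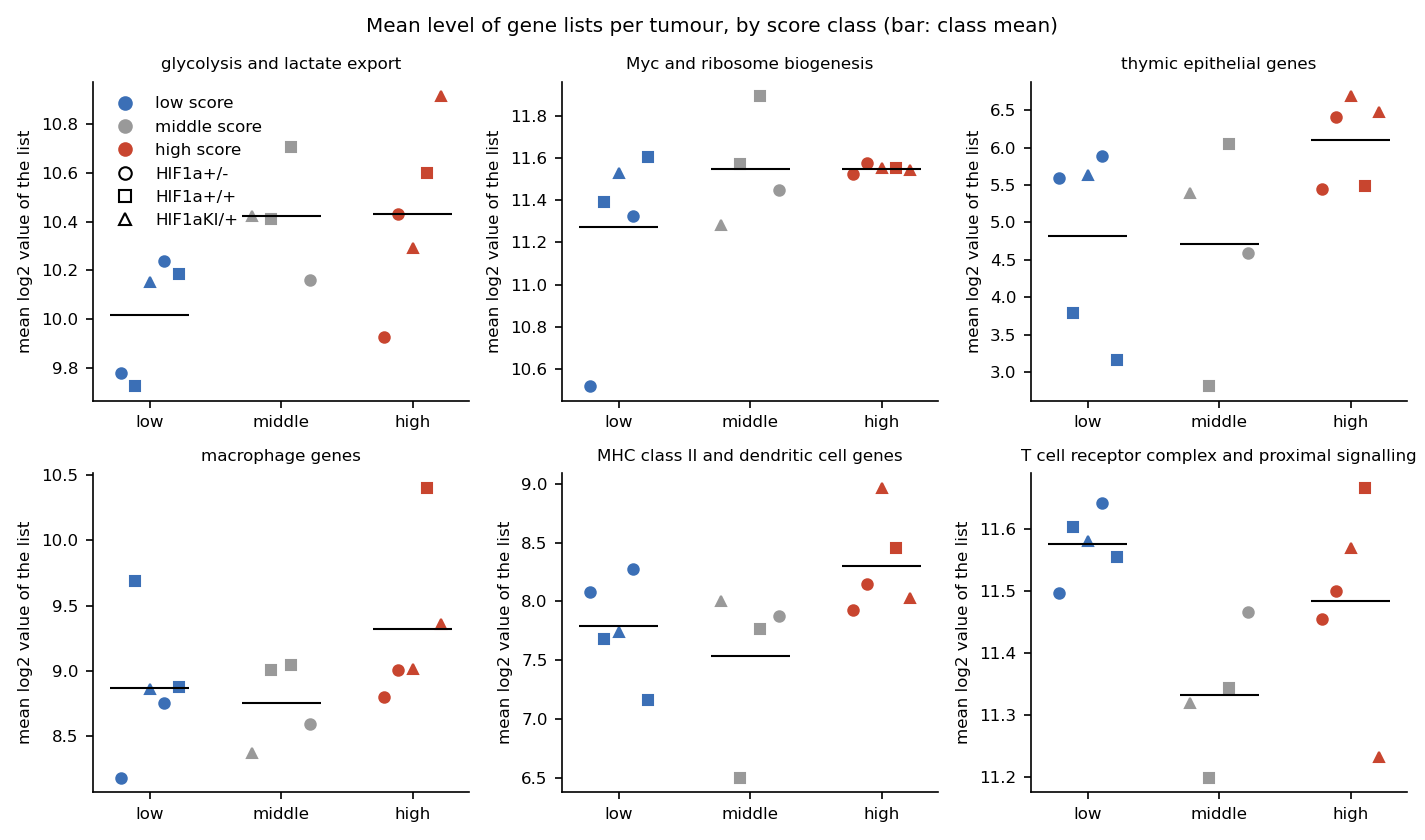
Mean log2 expression of the measured members of 6 lists (vertical axes) in the low, middle and high classes (horizontal axes), one point per tumour with the symbol giving the genotype and the bar the class mean. The thymic epithelial mean lies between 5.45 and 6.69 in the high class, and the macrophage mean is highest in HIF1a+/+ tumour 2, at 10.41.

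Pairs of tumours of the same class were about as alike as pairs of different classes. The 4 middle tumours were counted here as a class of their own. Over the genes the Pearson correlation of 2 arrays lay between 0.941 and 0.974, and its median was 0.960 within classes and 0.958 between them, where genes are not independent replicates. Array medians lay between 7.91 and 8.03.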

How the data were processed

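Expression was measured on 1 Affymetrix array for each of 14 tumours. The deposited values are log2 signals of 18264 probe sets made by the authors with GCRMA, and Partek is also named, per the submitters' processing notes; versions, genome build and filters are not given in the sources used here. The tissue samples are labelled as biological replicates. Probe sets naming 1 gene (16602) were kept, those naming several (603) or none (1059) left out, and each gene was read from its probe set of highest mean. The 3 classes were fitted in limma 3.58.1 (R 4.3.3) on all 14 tumours (lmFit, eBayes), and the high minus low contrast was adjusted by Benjamini-Hochberg over 10249 genes at 0.05. The script was tested on simulated data. Since the score and the genes come from the same arrays, shared array effects enter both, and the p-values measure variation with a score rather than an effect of a condition. The number of arrays limits the precision. Same-numbered tumours of different genotypes had a mean residual correlation of -0.00615 (-0.11 to 0.14 over 13 pairs), so the numbers were not taken to pair them. Such a mean cannot show a shift tied to 1 number, and all 3 tumours numbered 5 were in the low class. The classes, members and lists were chosen with earlier results of these data known. Named genes were the score genes, the 10 genes of smallest p in each direction with a log2 difference of at least 1, the 4 members of smallest p in each list discussed, and a set of HIF pathway genes. Alternatives changed the samples, covariates, score, normalization, filter and moderation.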

Additional observations from a re-analysis of the deposited data

Results flagged for a closer look

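Within classes of 4 or 5 tumours, 16 of the 135 gene and class combinations examined had 1 tumour standing apart by Dixon's criterion, which chance gives in about 1 of 20. In the middle class HIF1a+/+ tumour 3 stood apart for Nup98 (5.28) and Ryk (2.15), HIF1a+/+ tumour 1 for Tspan8 (2.15) and Hk2 (10.40), and HIF1a+/- tumour 1 for Slc2a3 (10.63). In the high class HIF1aKI/+ tumour 3 had the lowest Ercc5 (7.78) and Mvd (6.27), HIF1aKI/+ tumour 1 the lowest Slc66a1 (5.43), HIF1a+/+ tumour 2 the lowest Net1 (4.53) and HIF1a+/- tumour 3 the lowest Car9 (2.08). Of these, Ryk, Tspan8 and Car9 were at background, as were the remaining values that stood apart, namely Epas1 in HIF1aKI/+ tumours 1 (2.11) and 5 (2.82), Arnt in HIF1a+/- tumour 3 (2.51) and HIF1aKI/+ tumour 4 (2.01), and Vhl in HIF1a+/- tumours 4 (2.20) and 5 (2.50).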

How the results depend on the processing

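Of 1396 gene values recomputed under alternatives, 1342 kept their direction and side of the limma threshold. Of the others, 20 lost the call, 4 gained one and 30 changed sign. No leading gene changed sign, but these were picked for small p and large differences in the same tumours. The count of higher genes was 0 (1 in the limma fit reported) when only the 10 tumours were fitted, with the replicate number as a block, with a Y-linked covariate, with the score as a slope, for 4 against 4 tumours, for a score without Bnip3 and with probe sets tested singly, and ran from 0 to 3 when 1 tumour was left out. The count of lower genes, 0 as reported, was 1 for a score of scaled genes, 1 for a score without Slc2a1, 3 for a score without Vegfa, and 0 to 1 when 1 tumour was left out. Over these alternatives 211 to 580 genes were higher and 245 to 648 lower at an unadjusted p under 0.05. Arsi was higher in all 36 refits (4.60 to 7.53) and passed in 16, with adjusted p from 0.00317 to 0.961; with the genotype in the fit the gene called was Knop1, for 7 against 7 tumours Creb1. The cause of these changes was not tested.

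With the replicate block, Arsi differed by 5.53 (limma adjusted p = 0.892), and all 3 tumours numbered 5 are in the low class; Epas1 became 0.013, Arnt -0.022, Vhl 0.027, Slc16a3 -0.51, Adm 0.23, Ndrg1 -0.082 and Higd1a -0.14, and the median of glycolysis genes 0.0030, of the Bcl2 family -0.020, of Myc and ribosome biogenesis -0.050, of cell cycle -0.015 and of double-positive thymocyte genes 0.26; 9 of 33 list medians changed sign with this block, and 5 with the filter on level. Other sign changes were Ndrg1 for 7 against 7 (-0.0156) and without Vegfa (-0.041), Ddit4 for scaled genes (0.18), without Slc2a1 (0.083), after quantile normalization of the score (0.045) and with array weights (0.022), Higd1a without Bnip3 (-0.035) and for the mean of probe sets (-0.17), and Vhl (0.013) and Adm (0.34) with array weights. With 1 tumour left out, sign changes were seen for Adm from -0.51 to 0.24, Arnt from -0.034 to 0.082, Ddit4 from -0.16 to 0.077, Epas1 from -0.18 to 0.019, Ero1a from -0.042 to 0.21, Hif1a from -0.0097 to 0.26, Higd1a from -0.097 to 0.28, Ndrg1 from -0.21 to 0.61 and Vhl from -0.079 to 0.030. Probe sets near background and 5 tumours a class limit what can be seen.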
